A study of Mus musculus with 8 samples.

Results

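The genes of the hemidesmosome and of its ligand laminin-332 are described here across the incisor RNA-seq libraries of a mouse *Med1* deletion study. They are *Lama3*, *Lamb3*, *Itga6*, *Itgb4*, *Col17a1*, *Dst* and *Plec*, taken by name from the deposited table, which makes 7 of 23358 genes, and all 7 passed the filter on low values. *Med1* encodes a subunit of the Mediator complex, which couples transcription factors to RNA polymerase II. In the C57BL/6 mice labelled cKO, a Cre recombinase driven by the *Krt14* promoter, active in basal epithelium, removes floxed exons 8 to 10 of *Med1*, and the mice labelled Ctrl were Cre-negative littermates. Mice were 4 weeks old. Cervical loop (CL) tissue of the incisor, which the labels call dental epithelial cells, was divided into a head region with the stem cells (CLH) and a tail region with their progeny (CLT), and 6 tissues from 3 mice were pooled in each group, from 2 independent litters and without separating the sexes. Each of the 4 groups, Ctrl CLH, cKO CLH, Ctrl CLT and cKO CLT, has 2 libraries, so the p-values below measure the spread between pools.

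Hemidesmosomes are the junctions by which basal epithelial cells hold on to the basement membrane. The ligand, laminin-332, is a trimer that holds the chains encoded by *Lama3* and *Lamb3*. Its receptor is the integrin made of the subunits encoded by *Itga6* and *Itgb4*, beside which sits the transmembrane collagen XVII (*Col17a1*), and inside the cell the plakins dystonin (*Dst*, whose epithelial form is the bullous pemphigoid antigen) and plectin (*Plec*) tie the junction to keratin filaments. In the tooth, ameloblasts give up their basement membrane before they secrete enamel and, at maturation, rest on an atypical basal lamina that holds laminin-332. People who inherit defects of laminin-332, collagen XVII or this integrin have blistering skin and often pitted or thin enamel.

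Some properties of the libraries touch every result. Between 22330512 and 28651106 reads per library fell on genes, and each of the 7 genes was counted from 1040 reads or more in every library. The pair of Ctrl CLT libraries differed most, with 34.6% of the 14148 tested genes more than 1.5-fold apart against 0.763% to 1.12% in the other groups. *Med1* itself was not lower in the CLT libraries labelled cKO (9.15 and 8.96 RPKM, against 4.83 and 8.71 in those labelled Ctrl) and was 7.10 and 7.03 against 7.71 and 9.12 RPKM in CLH. RPKM, reads scaled by gene length and library size, is a gene-level value here and does not check the removal of the 3 floxed exons. Which exons of *Med1* were counted was not checked. The groups are therefore named by their labels throughout.

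The marker genes of the tissue were checked next, since they bear on what each library holds. All 7 basal epithelial markers were above 0 in every library, with summed RPKM of 617 to 716 in CLH, and in CLT of 1524 and 865 for Ctrl and of 2094 and 2353 for cKO. The 7 ameloblast markers, *Amelx* among them, summed to 12504 to 14318 RPKM in CLH and to 84584 and 37392 in Ctrl CLT, but to 19.7 and 15.8 in cKO CLT. The 6 odontoblast and bone markers stood at 973 to 1265 in the other 6 libraries and at 1.43 and 1.13 in cKO CLT, where *Ibsp* was at 0 in both. In the other direction, the 7 hair shaft and inner root sheath markers summed to 9876 and 10838 RPKM in cKO CLT and to 3.73 to 5.10 in CLH, while the Ctrl CLT libraries held 3331 and 8.68. The 7 skeletal muscle markers gave 1851 and 2038 in cKO CLT, 676 and 51.5 in Ctrl CLT and 27.5 to 31.8 in CLH. Cornified epidermal markers (6 of 7 found) and melanocyte markers were likewise highest in cKO CLT, at 1235 and 1250 and at 414 and 414, with the library Ctrl CLT 1 at 434 and 134. Schwann cell markers (113 to 168 RPKM), endothelial markers (57.6 to 95.3) and leukocyte markers (91.9 to 163) varied less. The libraries labelled cKO CLT thus nearly lack the defining markers of the ameloblast, and Ctrl CLT 1 carries hair, muscle and epidermal transcripts that Ctrl CLT 2 nearly lacks. In such bulk tissue, fewer cells of a type and less RNA per cell cannot be told apart, and the part that the changed marker content has in the results below was not tested.

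**Figure D1:**
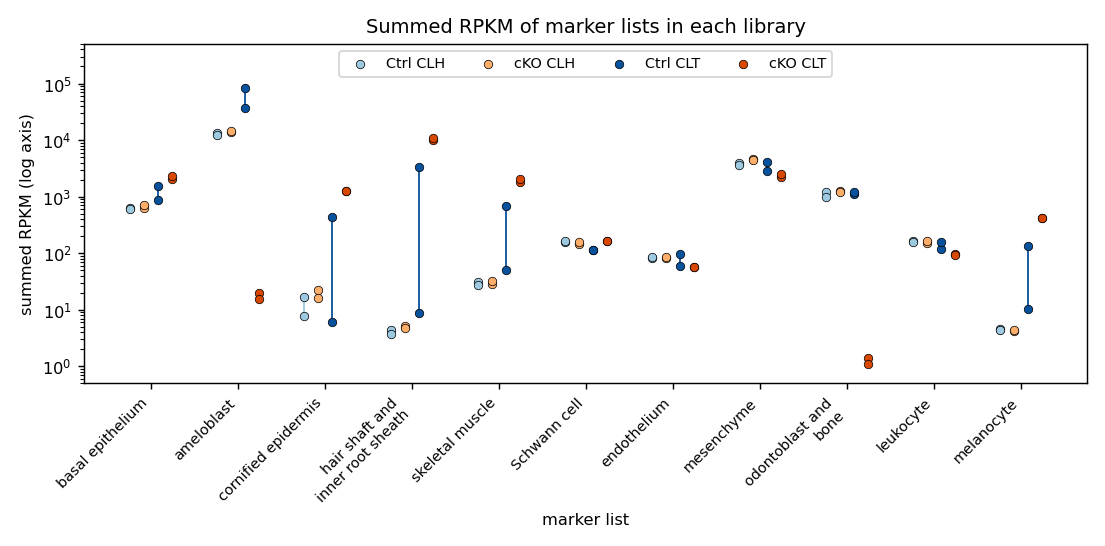
Summed RPKM (log axis) of 11 lists of cell type markers, with 1 point for each of the 8 libraries, a line joining the pair of a group and colour giving the group. Ameloblast markers fall from 84584 and 37392 in Ctrl CLT to 19.7 and 15.8 in cKO CLT, while hair markers stand at 9876 and 10838 in cKO CLT and at 3331 in 1 of the Ctrl CLT libraries.

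Promoter sequence from RefSeq (GRCm38.p6) is printed for 3 of the 7 genes, *Lamb3*, *Dst* and *Col17a1*. *Lama3*, *Itga6*, *Itgb4* and *Plec* are named only. The windows run from 250 bases before to 50 bases after a start site. As described below, *Lamb3* and *Dst* were lower in CLT libraries labelled cKO, and *Col17a1* was not called. *Lama3*, also lower there, has no window here, so the windows do not compare called with uncalled genes. The *Lamb3* window is at chr1:193301744-193302043 (plus strand), the windows of the upstream and the downstream *Dst* start are at chr1:34011345-34011644 and chr1:34160010-34160309 (plus strand), and that of *Col17a1* is at chr19:47691993-47692292 (minus strand), each written 5′ to 3′ along the gene with motif matches in capitals.
Lamb3: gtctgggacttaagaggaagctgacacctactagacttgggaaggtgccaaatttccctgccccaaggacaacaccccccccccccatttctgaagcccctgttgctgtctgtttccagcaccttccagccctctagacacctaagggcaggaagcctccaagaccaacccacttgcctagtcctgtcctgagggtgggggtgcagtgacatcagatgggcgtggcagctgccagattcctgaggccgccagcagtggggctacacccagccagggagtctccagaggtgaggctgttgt
Dst, upstream start: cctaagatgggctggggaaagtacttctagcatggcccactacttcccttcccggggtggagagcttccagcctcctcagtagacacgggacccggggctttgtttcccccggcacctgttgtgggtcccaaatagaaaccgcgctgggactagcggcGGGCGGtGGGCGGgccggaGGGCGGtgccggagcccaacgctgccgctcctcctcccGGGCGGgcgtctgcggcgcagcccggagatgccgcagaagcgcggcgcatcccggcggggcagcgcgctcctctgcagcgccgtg
Dst, downstream start: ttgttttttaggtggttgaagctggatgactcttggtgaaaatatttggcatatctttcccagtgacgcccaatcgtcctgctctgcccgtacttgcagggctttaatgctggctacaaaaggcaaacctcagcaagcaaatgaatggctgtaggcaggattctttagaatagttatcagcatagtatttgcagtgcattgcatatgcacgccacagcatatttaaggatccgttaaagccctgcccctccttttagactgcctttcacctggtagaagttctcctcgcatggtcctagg
Col17a1: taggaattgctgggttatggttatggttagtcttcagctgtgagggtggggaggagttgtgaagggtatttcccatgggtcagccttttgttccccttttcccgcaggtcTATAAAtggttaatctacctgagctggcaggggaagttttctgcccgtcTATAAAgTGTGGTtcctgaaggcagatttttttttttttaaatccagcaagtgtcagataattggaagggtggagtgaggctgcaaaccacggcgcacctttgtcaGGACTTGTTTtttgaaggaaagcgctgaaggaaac

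Both strands were searched for TGANTCA (the AP-1 site), TGTGGT (a Runx core), TATAAA (the TATA box), GGGCGG (the GC box) and the half-site of the p53 family, to which p63 of basal epithelium belongs. Of 32851 promoter windows of this length in RefSeq, 7.81% held the AP-1 site, 16.8% the Runx core, 13.6% TATAAA, 35.7% the GC box and 8.36% the half-site. The *Col17a1* window held TATAAA beginning 140 and 91 bases before the start, TGTGGT 84 bases before it and 1 half-site match from base 16 after it. The upstream *Dst* window, of 70.3% GC, held 4 GC boxes, and the downstream one, of 46% GC, held none of these motifs. Neither the *Lamb3* window above nor that of its second start held any. No match overlapped another, and the absence of a match says only that these letters are not in the window.

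For the comparison of the CLT libraries labelled cKO with those labelled Ctrl, which asks how these genes differ in the region where the progeny of the stem cells are found, 3 of the 7 genes fell and none rose: *Lama3*, *Lamb3* and *Dst*. Over all 14148 genes tested, 1.68% were called lower and 0.0777% higher by limma on log2(RPKM + 1) at a Benjamini-Hochberg adjusted p under 0.05. The median log2 fold change of the 7 genes was -0.98, against -0.01 over all genes. In 5 of the 7 genes (*Lama3*, *Lamb3*, *Itga6*, *Itgb4* and *Dst*) both cKO CLT libraries lay below both Ctrl CLT libraries, as did 35.1% of all genes. In *Plec* both lay above, as did 37.2%. With 2 libraries against 2, an exact permutation test of 1 gene cannot go below p = 0.333, so these calls rest on the spread that limma shares across genes.

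The laminin-332 chains showed the widest range of levels. *Lamb3* (chr1:193301994-193343878), the beta chain, stood at 211 and 96.1 RPKM in the CLT libraries labelled Ctrl and at 9.15 and 10.3 RPKM in those labelled cKO. The 2 Ctrl libraries were 2.19-fold apart, yet the lower of them was still far above both cKO libraries. The group means were 154 ± 81.2 and 9.71 ± 0.794 RPKM (SD, n = 2), a ratio of 15.8, and the log2 fold change was -3.75 (SE 0.42, limma adjusted p = 0.049). Only 0.530% of the tested genes had a lower value than *Lamb3*.

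*Lama3* (chr18:12334024-12583012), the alpha chain that is bound by the receptor, followed with 80.8 and 47.7 RPKM in Ctrl CLT and 5.97 and 6.29 RPKM in cKO CLT. Its means were 64.2 ± 23.4 and 6.13 ± 0.230 RPKM (SD, n = 2), 10.5-fold lower under the cKO label, with a log2 fold change of -3.15 (SE 0.30, limma adjusted p = 0.043). Both genes were therefore lower in each cKO CLT library than in either Ctrl CLT library.

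RPKM divides by 1 length per gene, 10342 bases for *Lama3* and 4055 for *Lamb3*, where the annotated exons cover 10745 and 6612 bases. Transcript forms are not separated, so the ratio below is one of RPKM and does not give the proportion of the chains. By RPKM, *Lama3* was the lower in every library. *Lamb3* stood at 2.53 to 3.21 times the *Lama3* value in CLH. In CLT it stood at 2.61 and 2.01 times in the Ctrl and 1.53 and 1.63 times in the cKO libraries. The ratio was thus below every other library in both cKO CLT libraries.

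**Figure D2:**
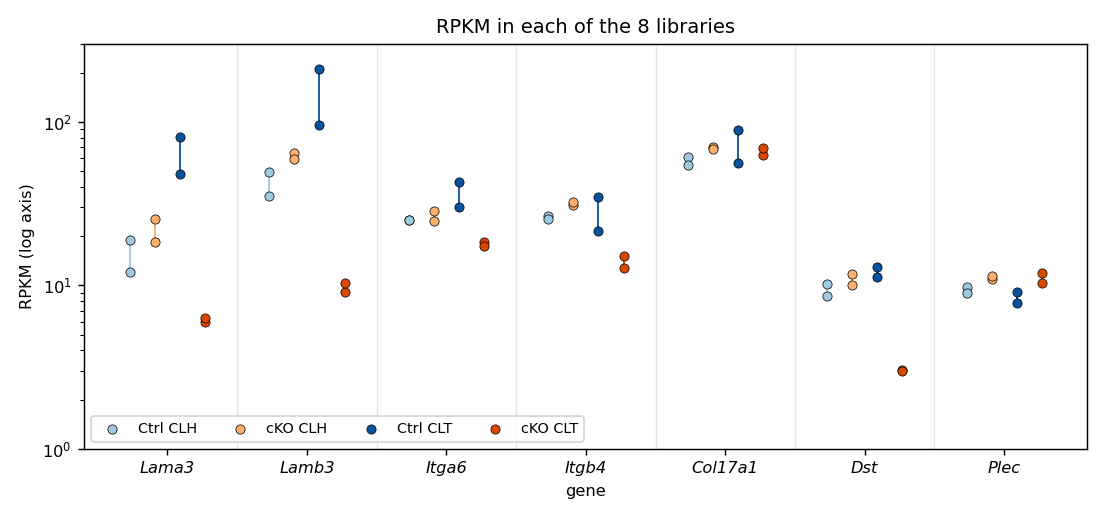
RPKM (log axis) of the 7 genes in each of the 8 libraries, with 1 point a library, a line joining the pair of a group and colour giving the group. The points of cKO CLT lie apart from and below all others for the laminin chains (5.97 to 10.3 RPKM), *Itga6*, *Itgb4* and *Dst* (3.05 and 3.01 RPKM). For *Col17a1* they lie among the others, and for *Plec* 1 of them (11.9 RPKM) is the highest of the 8.

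The receptor subunits were lower in both CLT libraries labelled cKO, with group means 2.05 and 2.03 times apart, but neither passed the threshold. *Itga6* (chr2:71787083-71856758), the alpha subunit, had 30.3 and 43.1 RPKM in Ctrl CLT and 18.3 and 17.5 RPKM in cKO CLT. The means of 36.7 ± 9.03 and 17.9 ± 0.589 RPKM (SD, n = 2) gave a log2 fold change of -0.98 (SE 0.22, 95% interval -1.58 to -0.37, limma adjusted p = 0.08). *Itgb4* (chr11:115974725-116008411), the beta subunit that pairs only with that alpha subunit and anchors the plakins, had 34.8 and 21.6 RPKM in Ctrl CLT and 12.8 and 15.0 RPKM in cKO CLT. Its log2 fold change was -0.94 (SE 0.28, 95% interval -1.71 to -0.16, limma adjusted p = 0.11). The Ctrl CLT libraries ranked the subunits in opposite order: *Itga6* was 0.870 times *Itgb4* in the one with hair and muscle transcripts and 1.99 times in the other. In all 4 CLH libraries the ratio lay between 0.766 and 0.986.

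*Col17a1* (chr19:47646341-47692042) did not share the low level of the laminin chains in cKO CLT. It was measured at 89.0 and 56.3 RPKM in Ctrl CLT and at 63.0 and 69.5 RPKM in cKO CLT, so that both cKO libraries lay between the Ctrl libraries. Its log2 fold change of -0.10 (SE 0.27, limma adjusted p = 0.81) had a 95% interval of -0.84 to 0.64, and it became 0.23 when Ctrl CLT 1 was left out. Set against *Col17a1* in the same library, *Lamb3* amounted to 2.37 and 1.71 in Ctrl CLT, 0.641 to 0.922 in CLH and only 0.145 and 0.148 in cKO CLT. For *Itgb4* the same ratio was 0.384 to 0.472 in the first 6 libraries and 0.204 and 0.216 in cKO CLT. The ratio to *Krt14*, the keratin of basal cells, also differed. *Itgb4* stood at 0.0230 and 0.0232 in cKO CLT, 0.0642 and 0.0785 in Ctrl CLT and 0.134 to 0.143 in CLH. *Col17a1* stood at 0.113 and 0.107 in cKO CLT, 0.164 and 0.204 in Ctrl CLT and 0.283 to 0.318 in CLH. *Krt14* itself varied, at 558 and 649 RPKM in cKO CLT, 543 and 275 in Ctrl CLT and 178 to 242 in CLH, so these ratios also carry its changes.

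The plakins of the junction parted ways. *Dst* (chr1:34011825-34308652) had 13.0 and 11.2 RPKM in the CLT libraries labelled Ctrl and 3.05 and 3.01 RPKM in those labelled cKO. The replicates were close in both groups, and the means of 12.1 ± 1.29 and 3.03 ± 0.0270 RPKM (SD, n = 2) were about 4-fold apart, with a log2 fold change of -1.70 (SE 0.17, limma adjusted p = 0.046). *Plec* (chr15:76170974-76231378) had 9.07 and 7.82 RPKM in Ctrl CLT and 10.4 and 11.9 RPKM in cKO CLT, a log2 fold change of 0.36 (SE 0.17, 95% interval -0.12 to 0.84, limma adjusted p = 0.21). The ratio of *Dst* to *Plec* was 0.881 to 1.06 in CLH, while the Ctrl CLT libraries had 1.44 and 1.43 and those labelled cKO 0.293 and 0.252. Both genes make several tissue-specific isoforms from different start sites, in muscle and nerve as well as in epithelium, and a gene-level RPKM does not separate them. Skeletal muscle markers were 1851 and 2038 RPKM in cKO CLT beside 676 and 51.5 in Ctrl CLT, and their part in the *Plec* and *Dst* values was not tested. Exons of *Plec* share 205 bases with *Parp10* on the same strand (2.62 to 3.98 RPKM), and exons of *Dst*, *Itgb4* and *Lama3* overlap antisense transcripts that have no row of their own.

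**Figure D3:**
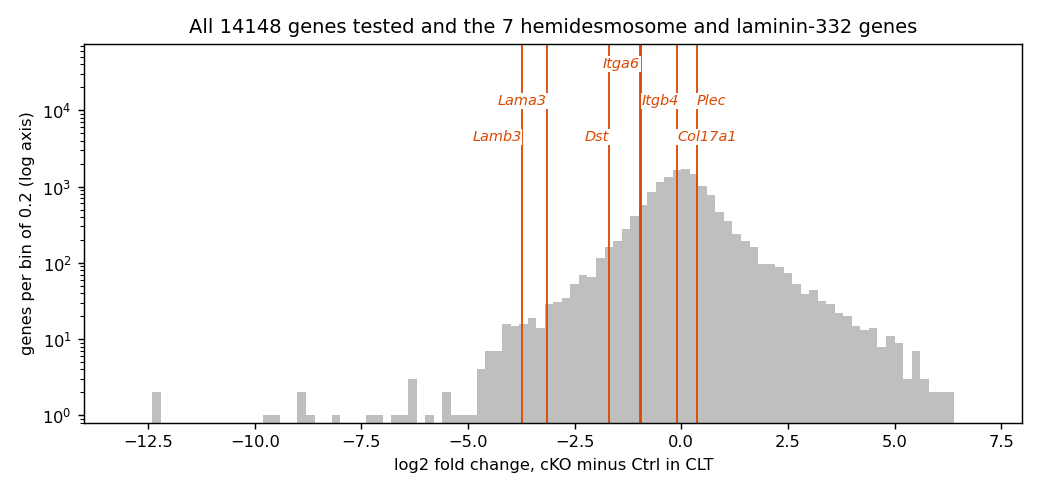
Number of genes (log axis) in each bin of 0.2 of the log2 fold change between CLT libraries labelled cKO and Ctrl for the 14148 genes tested, with orange lines at the 7 genes. *Lamb3* (-3.75) and *Lama3* (-3.15) lie in the thin lower tail, *Dst* at -1.70, *Itga6* and *Itgb4* on the lower shoulder, and *Col17a1* (-0.10) and *Plec* (0.36) in the body of the distribution.

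These CLT calls lay close to the threshold and depended on single libraries. Without either of the Ctrl CLT libraries, 6 of the 7 genes were called, the lone library being assumed to vary like the other group, but so were 69.5% of all genes when Ctrl CLT 1 was left out and 52.1% when the other was, and without either of the cKO CLT libraries none was. No gene of the 7 was called with no filter on low values (adjusted p = 0.092 for the 3 genes) or in voom on the recovered reads (adjusted p = 0.058 to 0.065). Without Ctrl CLT 1 the 6 genes included *Plec*, which was higher at a log2 fold change of 0.46, and not *Col17a1*. Without Ctrl CLT 2 they included *Col17a1*, which was lower at -0.42, and not *Plec*. The size of the differences in *Lamb3*, *Lama3* and *Dst* moved less than the calls. Between the fits that left out 1 library, the log2 fold change of *Lamb3* ran from -4.31 to -3.18, that of *Lama3* from -3.52 to -2.77 and that of *Dst* from -1.80 to -1.60, and without Ctrl CLT 1, the control library with hair and muscle transcripts, the values were -3.18, -2.77 and -1.60.

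In the CLH, where the comparison addresses the region with the stem cells, no gene was called in either direction (0% of all genes by limma, higher or lower, and 4.83% higher and 2.42% lower before adjustment, which is 684 and 343 genes). All 7 genes had a positive log2 fold change, with a median of 0.26 against -0.01 over all genes. Before adjustment, 4 of the 7 (*Lamb3*, *Itgb4*, *Col17a1* and *Plec*) were higher in the libraries labelled cKO at p under 0.05. In those 4 the groups did not overlap, which held for 19.9% of all genes. None passed the adjustment under any alternative or in voom on the recovered reads. *Lamb3* had 49.3 and 35.1 RPKM in Ctrl CLH and 64.6 and 59.3 RPKM in cKO CLH, the largest value of the 7 at a log2 fold change of 0.56 (SE 0.17, 95% interval 0.11 to 1.01, limma adjusted p = 0.69). *Itgb4* was at 26.7 and 25.4 against 30.8 and 32.4 RPKM, *Col17a1* at 61.2 and 54.7 against 70.1 and 68.5 RPKM, and *Plec* at 9.80 and 9.02 against 11.0 and 11.4 RPKM. Their log2 fold changes of 0.27, 0.26 and 0.23 each had limma adjusted p = 0.69. *Lama3* overlapped between the labels, at 18.9 and 12.1 against 25.6 and 18.5 RPKM, as did *Dst* at 10.2 and 8.59 against 11.7 and 10.02 RPKM and *Itga6* at 25.3 and 25.0 against 28.6 and 24.8 RPKM.

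An interaction term, fitted to the 8 libraries together, tested whether the difference between the labels was itself unlike in CLT and CLH. It was called for 5 of the 7 genes, all with a lower value in CLT, where 9.58% of all genes were called in that direction and 8.05% in the other. The interaction was -4.31 for *Lamb3* (SE 0.51, limma adjusted p = 0.007), -3.64 for *Lama3* (SE 0.44, limma adjusted p = 0.0075) and -1.89 for *Dst* (SE 0.20, limma adjusted p = 0.0053), each on the log2 scale. The receptor subunits had smaller values, -1.20 for *Itgb4* (limma adjusted p = 0.044) and -1.06 for *Itga6* (limma adjusted p = 0.036). Neither *Col17a1* (-0.35, 95% interval -1.06 to 0.36) nor *Plec* (0.14, 95% interval -0.29 to 0.56) was called. Leaving out cKO CLH 1 or cKO CLT 1 left 1 call, leaving out Ctrl CLH 2 left 2, and leaving out Ctrl CLH 1, cKO CLH 2 or cKO CLT 2 left 3. Without Ctrl CLT 2, *Col17a1* was called too, at -0.68 (limma adjusted p = 0.0038), in a fit that called 46.6% of all genes. With the replicate number as a block, 3 of the 7 genes were called and *Itga6* and *Itgb4* were not (limma adjusted p = 0.063 and 0.069).

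**Figure D4:**
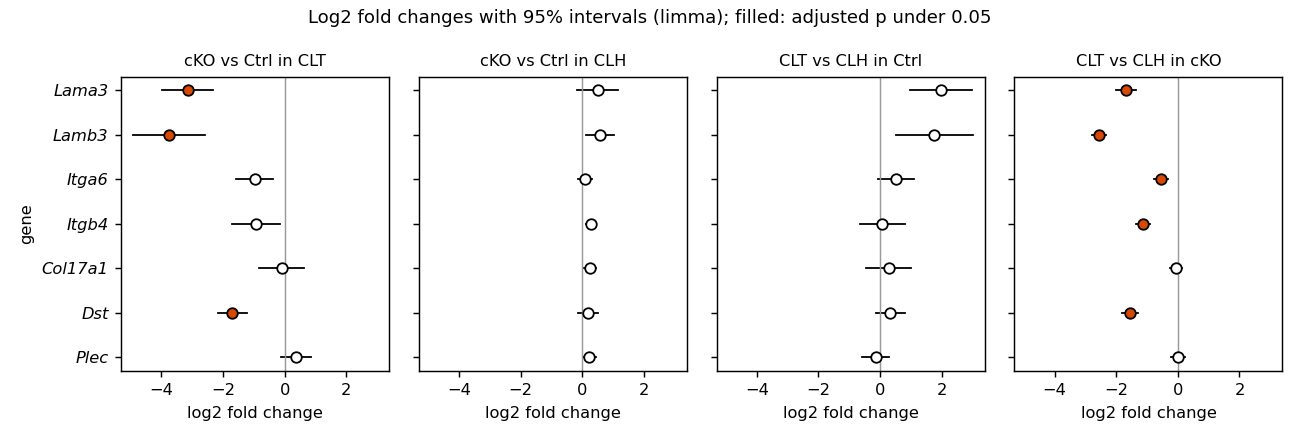
Log2 fold change of the 7 genes in each of 4 comparisons, with 95% intervals from limma as bars and filled points for an adjusted p under 0.05. *Lama3*, *Lamb3* and *Dst* are filled on the left side in CLT (cKO against Ctrl), none is filled in CLH or in the region comparison of the Ctrl libraries, and 5 are filled in the region comparison of the cKO libraries.

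The regions were then compared within each label. These comparisons share libraries with those above and are given for their own values. All-gene medians were -0.13 in the Ctrl and -0.18 in the cKO libraries on the log2 scale and became 0.01 and 0.02 with median-of-ratios scaling, so changes between regions are to be read against that shift. Among libraries labelled Ctrl, none of the 7 genes was called between CLT and CLH, and 0.00707% of all genes were called higher and 0% lower. *Lama3* was 18.9 and 12.1 RPKM in CLH and 80.8 and 47.7 RPKM in CLT (log2 fold change 1.97, SE 0.36, limma adjusted p = 0.31), and *Lamb3* was at 49.3 and 35.1 against 211 and 96.1 RPKM (1.75, SE 0.45, limma adjusted p = 0.33). In these 2 genes and in *Itga6* and *Dst* both CLT libraries lay above both CLH libraries, as did 15.2% of all genes. Before adjustment, 2 of the 7 (*Lama3* and *Lamb3*) were higher at p under 0.05, against 4.15% of all genes. Without Ctrl CLT 2, 5 of the 7 were called, as were 53.3% of all genes, and without Ctrl CLT 1 only *Itga6* was, with 3.31% of all genes. *Itgb4* (0.07) and *Col17a1* (0.29) turned to -0.26 and -0.04 without Ctrl CLT 1.

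Among libraries labelled cKO, 5 of the 7 genes were lower in CLT than in CLH, where 45.1% of all genes were called lower and 28.9% higher. That split of 6384 lower and 4084 higher genes became 4884 and 5270 with median-of-ratios scaling, under which the members called were still 5. *Lamb3* went from 64.6 and 59.3 RPKM in CLH to 9.15 and 10.3 RPKM in CLT (-2.56, SE 0.09, limma adjusted p = 6.3e-08), *Lama3* from 25.6 and 18.5 to 5.97 and 6.29 RPKM (-1.67, SE 0.14, limma adjusted p = 1.1e-05) and *Dst* from 11.7 and 10.02 to 3.05 and 3.01 RPKM (-1.55, SE 0.11, limma adjusted p = 2.9e-06). The receptor subunits fell as well, *Itgb4* by 1.13 (limma adjusted p = 1.4e-05) and *Itga6* by 0.55 (limma adjusted p = 0.00099) on the log2 scale. *Col17a1* (-0.07) and *Plec* (-0.01) had 95% intervals of -0.27 to 0.14 and -0.23 to 0.22, and both turned positive with median-of-ratios scaling, at 0.15 and 0.20.

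Ordered by RPKM in CLH, *Col17a1* came first, followed by *Lamb3*, *Itgb4* and *Itga6*, then *Lama3*, and last *Plec* and *Dst*. Within a label the neighbours did not overlap there, except *Plec* with *Dst* under both labels and *Lama3* with *Itga6* under the cKO label, and *Itgb4* lay above *Itga6* by little in the Ctrl libraries. In Ctrl CLT, *Lamb3* was highest, *Col17a1* and *Lama3* overlapped, *Itga6* and *Itgb4* overlapped, and *Dst* lay above *Plec*. In cKO CLT the order was *Col17a1*, *Itga6*, *Itgb4*, *Plec*, *Lamb3*, *Lama3* and *Dst*. No neighbours overlapped in that order, though *Plec* at 10.4 and 11.9 RPKM and *Lamb3* at 9.15 and 10.3 RPKM nearly met. These orders, like the ratios between genes above, are of RPKM and depend on the 1 length used per gene. That length was 4205 bases for *Itga6* and 23242 for *Dst*, where the annotated exons cover 9025 and 41155 bases.

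As a description over the 8 libraries, which share groups and so are not independent points, Pearson's r with the mean standardised log2(RPKM + 1) of the 7 genes was 0.95 for *Lamb3*, 0.92 for *Itgb4*, 0.91 for *Lama3*, 0.90 for *Dst*, 0.70 for *Itga6*, 0.54 for *Col17a1* and -0.27 for *Plec*. Each of the 7 genes is itself part of that mean, which raises its r, whereas the genes ranked next are not. Among the 9515 other genes ranked by the same measure, *Os9*, *Klc4*, *Relt*, *Atp9a* and *Galt* were most alike, with r of 0.97 to 0.98, and of 0.96 to 0.98 without Ctrl CLT 1, where they ranked 3, 8, 18, 22 and 7. *Relt*, a receptor of the tumour necrosis factor receptor family, was measured at 36.9 and 11.4 RPKM in Ctrl CLT, 1.33 and 1.77 RPKM in cKO CLT and 7.30 to 15.2 RPKM in CLH.

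Related genes, grouped by function, place these values in CLT. Of 8 laminin chains outside the set, none was called, and 7 had a negative log2 fold change, with a median of -0.70 over the 8. *Lama1*, an alpha chain found in embryonic and some adult basement membranes, went from 4.86 and 9.52 to 0.10 and 0.13 RPKM (-2.82, limma adjusted p = 0.054), and *Lamc3* was at 4.99 and 4.65 against 1.97 and 2.37 RPKM (-0.88, limma adjusted p = 0.076). Of 12 other integrin subunits, 11 were tested and 2 fell. *Itgb6*, an epithelial subunit that activates TGF-beta with its alpha-v partner, fell from 11.6 and 13.4 to 2.35 and 2.57 RPKM (-1.96, limma adjusted p = 0.04), and *Itgb5* from 62.8 and 60.6 to 24.4 and 27.0 RPKM (-1.23, limma adjusted p = 0.05, under the threshold before rounding). Their partner *Itgav* had a log2 fold change of -1.35 (limma adjusted p = 0.06).

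The other plakins went the other way, although none passed the test. All 5 had positive log2 fold changes with a median of 1.98, led by periplakin (*Ppl*, 2.96, limma adjusted p = 0.13) and desmoplakin (*Dsp*, 2.17, limma adjusted p = 0.095), which belong to the cornified envelope and the desmosome. *Dsp* was 103 and 33.0 RPKM in Ctrl CLT and 263 and 271 RPKM in cKO CLT. Of 12 other genes of inherited skin fragility, none was called, 9 had positive values, and the desmosomal *Jup* had the largest (2.20, limma adjusted p = 0.11). The 3 with negative values were *Col7a1*, *Klhl24* and *Cd151*. In each, both cKO CLT libraries lay below both Ctrl CLT libraries, as did 35.1% of all genes. *Col7a1* was at 12.5 and 10.7 RPKM in Ctrl CLT and at 5.25 and 5.99 RPKM in cKO CLT. Cornified markers moved with the plakins and the genes of positive value. They were at 1235 and 1250 RPKM in cKO CLT against 434 and 6.05 in Ctrl CLT, and their part was not tested.

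Of 18 other basement membrane genes, 16 were tested and 1 fell, with a median of -0.49. That gene was *Npnt*, a ligand of the alpha-8 integrin, at 39.3 and 29.8 RPKM in Ctrl CLT and 7.08 and 7.11 RPKM in cKO CLT (-2.12, limma adjusted p = 0.041). The largest differences were those of *Frem1* (-2.89, limma adjusted p = 0.11) and *Fras1* (-2.21, limma adjusted p = 0.06), of the complex that links epithelium to mesenchyme. Of 8 proteases that can cut laminin-332 or collagen XVII none was called, with a median of -0.60 and *Mmp14* (-1.40, limma adjusted p = 0.062) and *Mmp2* (-1.33, limma adjusted p = 0.1) farthest from 0. The 7 mesenchymal markers summed to 2868 and 4080 RPKM in Ctrl CLT and to 2262 and 2514 in cKO CLT, none was called, and their median log2 fold change was -1.49. *Lum* was at 191 and 673 RPKM in Ctrl CLT and at 41.4 and 38.0 in cKO CLT, while *Col3a1* was at 527 and 456 against 874 and 979. Their part in these values was not tested. In CLH none of the genes in these lists was called.

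**Figure D5:**
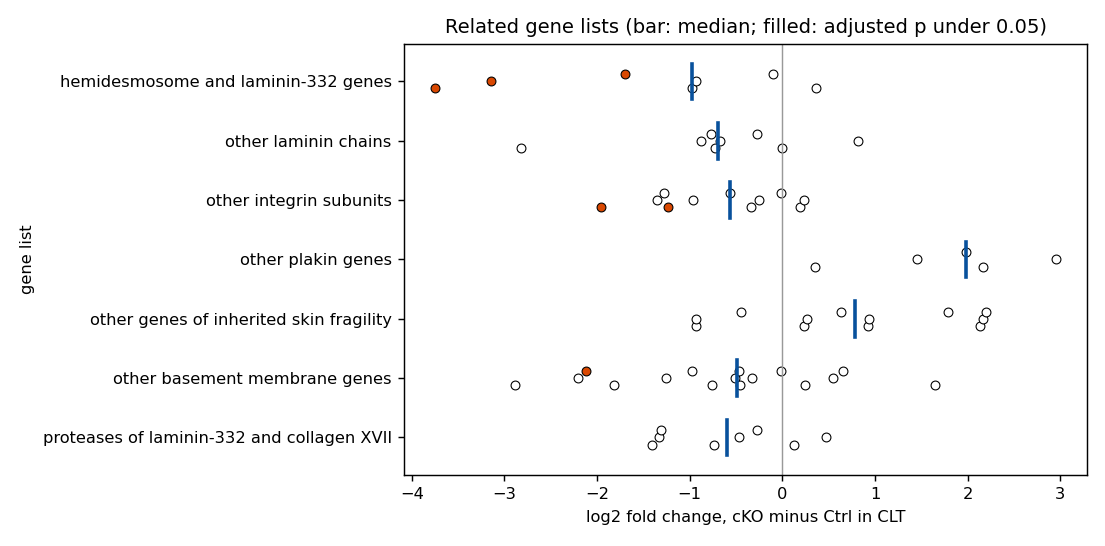
Log2 fold change between CLT libraries labelled cKO and Ctrl for the 7 genes and 6 lists of related genes, with 1 point a gene, a blue bar at the list's median and filled points for an adjusted p under 0.05. The median of the 7 genes is -0.98, that of the other laminin chains -0.70 and that of the other plakins 1.98.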

How the data were processed

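RNA of 8 pools was sequenced on an Illumina instrument from TruSeq libraries, a kit that does not mark strand. The authors trimmed reads with Trim Galore 0.4.3.1, checked them with FastQC 0.72, aligned them to mm10 with STAR 2.6.0b-1, counted them per gene with featureCounts 1.6.3 and compared groups with DESeq2 2.11.40.2. The annotation, the strand setting and the total behind RPKM are not given in the sources used here. The authors deposited RPKM per gene and library with a gene length column. No column of per-sample values was left unused (0).

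RPKM values gave whole reads within 0.01 of a read for 100% of the values checked, from 26590000 to 34420000 reads per library, of which 82.2% to 85.6% lay on genes. Genes were tested where 2 or more of the 8 libraries reached an RPKM of 1 (14148 of 23358), as log2(RPKM + 1), which understates the change of low genes, with limma 3.58.1 (R 4.3.3; lmFit, eBayes with a variance trend) within the 4 libraries of a comparison, or over all 8 for the interaction, two-sided and adjusted after Benjamini and Hochberg over all genes tested. A call is an adjusted p under 0.05. The script was tested on simulated data. 69 rows share 26 gene names and are not used by name.

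The members and lists were chosen with earlier results of these data known. All 7 members are named. From each list the text names genes called in CLT or CLH and the 2 with the largest difference in CLT, plus the 5 genes of mean RPKM of at least 5 most like the members. Of the skin fragility genes, the 3 with negative values in CLT are named too. *Krt14* and the markers named beside results check the tissue. Coordinates are those of mm10 (GENCODE), and promoters are those of RefSeq, matched by symbol and printed for 3 of 7 members. Alternatives were other pseudocounts, filters, scalings and variance models, all 8 libraries in 1 fit, voom, the replicate block and each library left out. 1 related gene is not reported here.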

Additional observations from a re-analysis of the deposited data

Results flagged for a closer look

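For 5 of the 7 genes, the difference between libraries labelled cKO and Ctrl differed between CLT and CLH by the limma interaction test. The values on the log2 scale, CLT minus CLH, were -3.64 for *Lama3*, -4.31 for *Lamb3*, -1.06 for *Itga6*, -1.20 for *Itgb4* and -1.89 for *Dst*. With the replicate number as a block *Itga6* and *Itgb4* were not called, and leaving out 1 library left from 1 to 6 of the 7 genes called. Groups of 2 libraries are too small for a test of single outlying libraries.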

How the results depend on the processing

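Direction was steadier than the calls. Of the 7 genes in CLT, 3 were called. The count was 0 with no filter on low values, 1 with median-of-ratios scaling, 5 with all 8 libraries in 1 fit, 0 in voom and 0 to 6 when 1 library was left out. The count for CLT against CLH among Ctrl libraries went from 0 to 2 with all 8 libraries in 1 fit and was 0 to 5 when 1 library was left out. The interaction count of 5 became 3 with the replicate block and 1 to 6 when 1 library was left out. For CLH and for the regions among cKO libraries the count changed under no alternative tried (0 and 5).

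Signs reversed for small differences. In CLT, *Col17a1* became 0.23 without Ctrl CLT 1 and -0.42 without Ctrl CLT 2, and in CLH *Itga6* became -0.0203 without cKO CLH 1 and 0.18 without cKO CLH 2. Between regions in Ctrl libraries, *Itgb4* became -0.26 and *Col17a1* -0.0393 without Ctrl CLT 1, against 0.41 and 0.61 without Ctrl CLT 2, and *Plec* 0.0146 with median-of-ratios scaling. Between regions in cKO libraries, *Col17a1* became 0.15 with that scaling and 0.00444 without cKO CLT 1 (-0.14 without cKO CLT 2), and *Plec* became 0.20 with that scaling, 0.0820 with quantile normalization, 0.0165 without cKO CLH 2 and 0.0859 without cKO CLT 1 (-0.0967 without cKO CLT 2). The cause was not tested. *Lama3*, *Lamb3* and *Dst* kept a negative sign in CLT in all 16 alternatives, with adjusted p from 2.6e-05 to 0.24, from 2e-05 to 0.26 and from 0.00017 to 0.46.

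Over all genes, the 248 calls in CLT became 3 with no filter, 6183 with all 8 libraries in 1 fit, 18 in voom and 11 to 9838 when 1 library was left out. In CLH robust variance estimates called 4 genes instead of 0. The 1 call between regions in Ctrl libraries became 837 with all 8 libraries in 1 fit and 0 to 7537 when 1 library was left out, and the 2494 interaction calls became 198 to 8932 when 1 library was left out.

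The replicate numbers are shared by all groups, and the study describes 2 independent litters, but no source says that a number marks a litter, pool or day. Differences between replicates 1 and 2 correlated across genes at 0.195 (Ctrl CLH with Ctrl CLT), 0.307 (cKO CLH with cKO CLT), 0.0656 (Ctrl with cKO in CLH) and -0.192 (Ctrl with cKO in CLT). With the number as a block, the calls over all genes were 1744 in CLT, 5 between regions in Ctrl libraries and 1448 for the interaction, and 3, 0 and 3 of the 7 genes were called (*Itga6* and *Itgb4* not, for the interaction). With the numbers crossed in CLT, an alternative chosen after seeing the data, 9 genes in all and 0 of the 7 were called.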

Other observations

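Between regions, the related lists moved in the libraries labelled cKO as follows. Of 8 other laminin chains 7 were called lower and 1 higher in CLT than in CLH, of 11 other integrin subunits 8 were lower and 1 higher, and of 16 other basement membrane genes 11 were lower and 2 higher. The 5 other plakins had 4 higher and none lower, and the 12 other skin fragility genes 9 higher and 2 lower. Over all genes 45.1% were called lower and 28.9% higher. *Frem1*, of the complex that links epithelium to mesenchyme, had the lowest value at -4.21 on the log2 scale (limma adjusted p = 1.1e-08), and *Ppl*, of the cornified envelope, stood at 3.76 (limma adjusted p = 8.5e-09). For the interaction, 2 of 8 laminin chains, 4 of 11 integrin subunits, 6 of 16 basement membrane genes and 3 of 8 proteases were called lower in CLT, and 1 of 5 plakins and 1 of 16 basement membrane genes higher, while the 12 skin fragility genes had 1 call in each direction. Over all genes 9.58% were called lower and 8.05% higher. Among the lower calls were *Itgb6* (-2.11, limma adjusted p = 0.0063) and *Npnt* (-2.19, limma adjusted p = 0.004).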
